A study of Homo sapiens with 20 samples.

Results

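DPP3, DMAC2, ESAM, YIF1A, RFPL4A and CA2 are 6 genes of unrelated function. In MDA-MB-231 cells treated with cisplatin, alone or together with TM, their mRNA stood far above Control. With TM alone, all but CA2 stood above every Control array at both times. CA2 then differed from Control by 0.16 (log2) at 24 h and 0.66 at 12 h. The 6 genes were chosen by their log2 differences from Control on these same arrays. DPP3, DMAC2, ESAM and YIF1A were chosen as 4 genes raised in every treatment. RFPL4A and CA2 were chosen as 2 genes raised in the cisplatin arms at 24 h. All 6 belong to the 18417 genes with a transcript cluster of their own. A transcript cluster is the set of probes that the array assigns to 1 gene, and where a gene had several, the one with the highest mean over the 20 arrays was read. Because the differences from Control chose the genes, these differences are described here with no p. The differences between treated groups use no Control array and were tested, although the same treated arrays entered the choice of the genes.

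MDA-MB-231 is an established line of basal-type, triple-negative human breast cancer. Cisplatin, a platinum compound, forms crosslinks in DNA. TM stands for ammonium tetrathiomolybdate, a chelator that binds copper. Cells received 36 µM cisplatin together with 10 µM TM for 24 h (Cis/TM 24 h) or 12 h (Cis/TM 12 h), 36 µM cisplatin alone (Cis 24 h and Cis 12 h), 10 µM TM alone (TM 24 h and TM 12 h) or vehicle (Control), and their total RNA was measured on Affymetrix arrays of the type Human Gene 1.0 ST. There were 2 arrays for TM 12 h and 3 for each of the other 6 groups. The 3 Control arrays carry no time in their labels and were set against both times, so every comparison with Control shares them. The methods describe treatment of triplicate wells of 6-well plates, so the p-values measure the spread between such wells of 1 cell line. The values are of 1 cell line in bulk, and less RNA of a gene in each cell cannot be told apart from fewer cells that express it.

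The 6 proteins work in different places in the cell. DPP3 is a cytosolic zinc peptidase that removes dipeptides from the start of short peptides, and it also binds KEAP1, the adaptor that marks the antioxidant factor NRF2 for destruction. DMAC2 is a mitochondrial protein needed for building the distal membrane arm of respiratory complex I. ESAM is an immunoglobulin-type adhesion molecule best known from endothelial tight junctions and platelets. YIF1A is a membrane protein of the early secretory pathway that binds YIP1 family proteins and travels between the endoplasmic reticulum and the Golgi. RFPL4A is a RING finger protein of the RFPL family, studied mainly in mouse as an oocyte gene. CA2 is the cytosolic carbonic anhydrase that interconverts carbon dioxide and bicarbonate, with high levels in red cells, osteoclasts and kidney.

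The cell line and the arrays were checked once. The mesenchymal markers VIM, CD44, CAV1, MSN, AXL and SPARC had mean levels between the 90.3 and 99.5 percentile of all genes. ESR1, PGR and CDH1, which the line should lack, lay at the 16.6, 9.44 and 11.9 percentile, whereas the epithelial genes EPCAM, KRT19 and GATA3 lay at 81.2, 61.5 and 52.8. The SD of the log2 values over genes was 2.03 to 2.18 on the 17 treated arrays and 2.01 to 2.03 on the Control arrays, and array medians were 5.75 to 5.94 and 5.71 to 5.77. With the trend of each array against the level of a gene removed, DPP3, DMAC2, ESAM, YIF1A and RFPL4A still lay above Control in all 6 comparisons, by 0.83 (RFPL4A at TM 24 h) to 3.80 (RFPL4A at Cis 12 h) on the log2 scale. Centring each array on its median moved the median of all genes by −0.111 at Cis/TM 12 h and −0.152 at Cis 12 h, and by less elsewhere. It moved the share of called genes that were higher than Control to 49% (64% as deposited) at Cis/TM 12 h, to 54.2% (70.1%) at Cis 24 h, to 39.7% (57.8%) at Cis 12 h, to 48.2% (66.9%) at TM 24 h and to 61.3% (74.3%) at TM 12 h. Removing the trend with level gave 52.3% (64.7% as deposited) at Cis/TM 24 h, and quantile normalization 54%.

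DPP3 read 7.50, 6.97 and 7.11 on the Cis/TM 24 h arrays and 7.88, 7.70 and 7.60 on the Cis/TM 12 h arrays. It read 7.92, 7.76 and 7.46 at Cis 24 h and 7.71, 7.69 and 7.24 at Cis 12 h. With TM alone it read 7.29, 7.08 and 7.36 at 24 h and 7.63 and 7.51 at 12 h, against 5.74, 6.34 and 5.76 on the Control arrays. All 17 treated arrays lay above all 3 Control arrays, the lowest treated value being 6.97 and the highest Control value 6.34. The treated groups themselves overlapped over most of their range, and their means fell into 2 sets, with Cis/TM 24 h (7.19 ± 0.28, SD, n = 3) and TM 24 h (7.24 ± 0.15, SD, n = 3) below the other 4 groups (7.55 to 7.73). DPP3 differed from Control by 1.24 ± 0.17 (log2, ± SE) at Cis/TM 24 h and by 1.78 ± 0.17 at Cis/TM 12 h, which is 2.37-fold and 3.43-fold. The differences were 1.76 at Cis 24 h, 1.60 at Cis 12 h, 1.30 at TM 24 h and 1.62 at TM 12 h.

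DMAC2 read 8.11, 8.01 and 7.83 on the Cis/TM 24 h arrays and 9.16, 8.65 and 8.86 on the Cis/TM 12 h arrays. It read 8.87, 8.76 and 8.45 at Cis 24 h and 8.49, 9.13 and 8.62 at Cis 12 h. With TM alone it read 7.82, 7.80 and 8.20 at 24 h and 8.42 and 8.30 at 12 h, against 6.53, 6.84 and 6.58 in Control. No treated array came near the Control arrays, and the lowest of them was at 7.80. Cis/TM 12 h, Cis 12 h and Cis 24 h had the highest means (8.89, 8.75 and 8.69) and overlapped each other, TM 12 h lay between (8.36), and Cis/TM 24 h and TM 24 h were the lowest treated groups (7.98 and 7.94) and overlapped each other. The log2 difference from Control ran from 1.29 ± 0.17 (SE) at TM 24 h to 2.24 ± 0.17 at Cis/TM 12 h, or 2.44-fold to 4.72-fold.

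ESAM read 6.71, 6.24 and 6.03 on the Cis/TM 24 h arrays and 7.24, 6.92 and 7.07 on the Cis/TM 12 h arrays. It read 7.17, 6.84 and 7.01 at Cis 24 h and 6.79, 7.07 and 6.75 at Cis 12 h. With TM alone it read 6.13, 6.35 and 6.33 at 24 h and 6.76 and 6.79 at 12 h, against 4.93, 4.90 and 5.37 in Control. The order of the groups was nearly that of DMAC2, with Cis/TM 24 h and TM 24 h lowest among the treated groups, and the treated arrays again lay apart from Control (lowest treated value 6.03, highest Control value 5.37). ESAM differed from Control by 1.20 ± 0.16 (log2, ± SE) at TM 24 h, the smallest of its 6 differences, and by 2.01 ± 0.16 at Cis/TM 12 h, the largest, or 2.30-fold and 4.03-fold. Other genes of endothelial cells were at low to middle levels: the 10 endothelial markers (among them PECAM1, CDH5, VWF and KDR) had mean levels at the 5.78 to 50.1 percentile of all genes. The highest were CLDN5 (50.1) and ROBO4 (42.0). None of the 60 comparisons of these markers with Control was called by limma, and 10 of the 60 had an unadjusted p under 0.05, 2 of them with the treated group higher.

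YIF1A read 6.64, 6.59 and 6.48 on the Cis/TM 24 h arrays and 8.27, 7.999 and 7.996 on the Cis/TM 12 h arrays. It read 7.43, 7.07 and 7.003 at Cis 24 h and 7.97, 8.43 and 7.77 at Cis 12 h. With TM alone it read 6.91, 7.01 and 7.12 at 24 h and 7.34 and 7.17 at 12 h, against 4.62, 5.64 and 5.89 in Control. The 12 h arrays with cisplatin stood above every other array, whereas the 24 h arrays with both drugs were the lowest of the treated ones. The Control arrays of YIF1A were the widest of any group here (SD 0.67), with Control A (4.62) far below Control B and C. The log2 difference was 1.18 ± 0.23 (SE) at Cis/TM 24 h (0.80 without Control A) and 2.70 ± 0.23 at Cis/TM 12 h (2.32 without Control A), which is 2.27-fold and 6.51-fold.

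RFPL4A read 9.61, 9.46 and 9.49 on the Cis/TM 24 h arrays and 11.50, 11.48 and 11.42 on the Cis/TM 12 h arrays. It read 10.39, 10.44 and 10.25 at Cis 24 h and 11.52, 11.61 and 11.50 at Cis 12 h. With TM alone it read 8.50, 8.75 and 8.72 at 24 h and 9.27 and 8.89 at 12 h, against 7.82, 7.71 and 7.70 in Control. The groups stepped down from both 12 h groups with cisplatin through Cis 24 h, Cis/TM 24 h, TM 12 h and TM 24 h to Control, and the means of the 2 highest groups lay within 0.08 of each other. The log2 differences from Control were 1.78 ± 0.10 (SE) at Cis/TM 24 h, 3.72 ± 0.10 at Cis/TM 12 h, 2.62 ± 0.10 at Cis 24 h and 3.80 ± 0.10 at Cis 12 h. They were 0.92 ± 0.10 at TM 24 h and 1.34 ± 0.12 at TM 12 h. The gene was therefore highest at 12 h, at 14.0-fold over Control with cisplatin and 13.2-fold with both drugs, and at 24 h it was 6.14-fold and 3.43-fold over Control, so that the pattern on which it was selected (the cisplatin arms at 24 h) covers only part of its response.

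CA2 read 7.33, 7.35 and 7.42 on the Cis/TM 24 h arrays and 7.84, 7.67 and 7.58 on the Cis/TM 12 h arrays. It read 8.07, 7.77 and 7.83 at Cis 24 h and 7.46, 7.81 and 7.57 at Cis 12 h. With TM alone it read 5.57, 5.45 and 6.00 at 24 h and 6.14 and 6.21 at 12 h, against 5.29, 5.51 and 5.75 in Control. Its 4 groups with cisplatin lay together, more than 1 log2 unit above both TM groups, and the TM 24 h arrays overlapped the Control arrays. The log2 differences from Control were 1.85 ± 0.14 (SE) at Cis/TM 24 h, 2.18 ± 0.14 at Cis/TM 12 h, 2.37 ± 0.14 at Cis 24 h and 2.10 ± 0.14 at Cis 12 h, or 3.61-fold to 5.18-fold. With TM alone they were 0.16 ± 0.14 at 24 h and 0.66 ± 0.16 at 12 h. Of the erythroid genes, HBB, ALAS2, SLC4A1 and CA1 had mean levels at the 34.2, 26.4, 22.0 and 10.5 percentile of all genes.

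**Figure D1:**
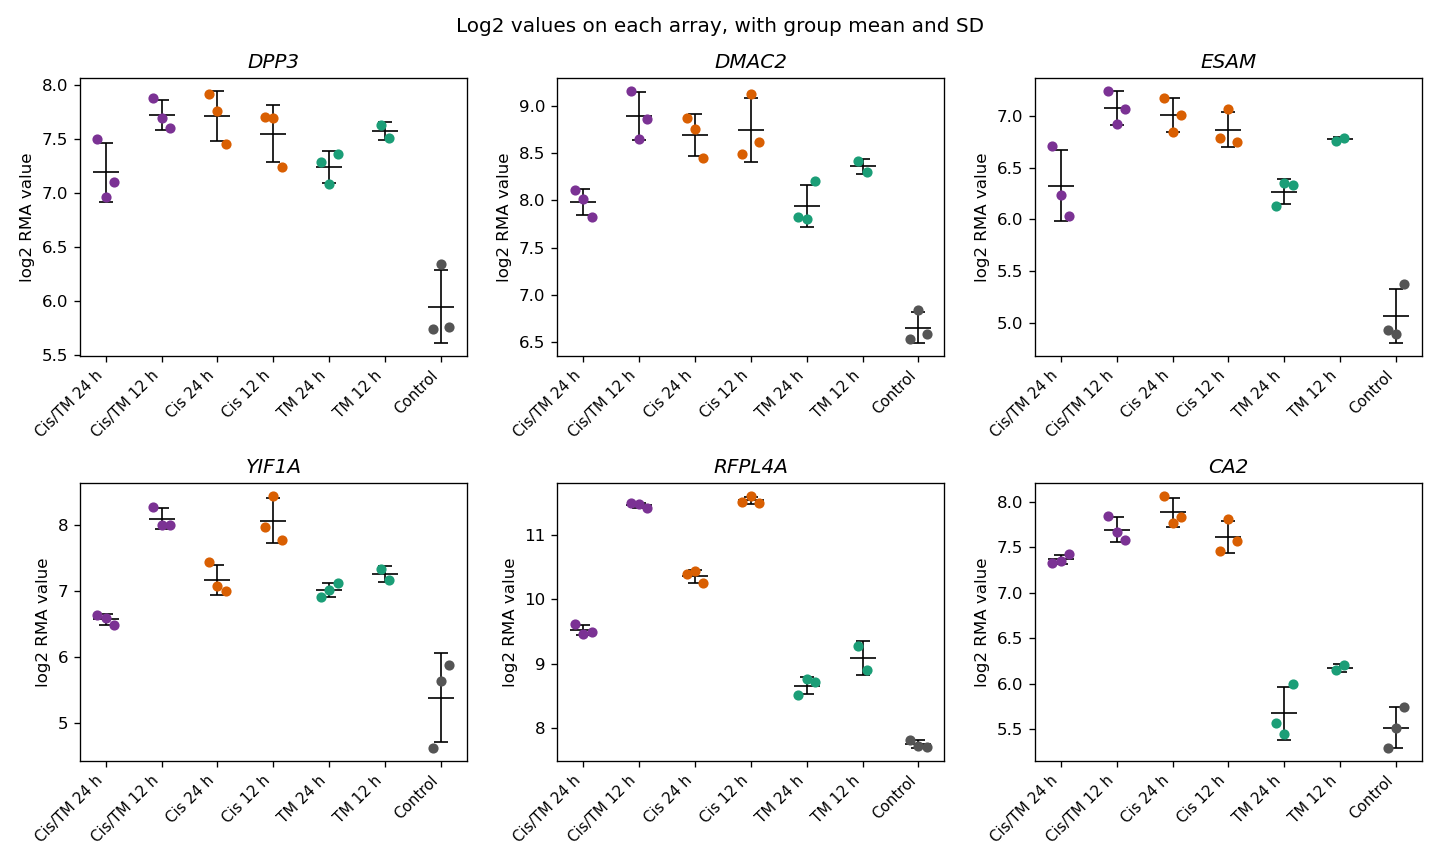
Log2 RMA values (vertical axis) of each gene on the 20 arrays, by group along the horizontal axis. Points are arrays (2 for TM 12 h, 3 for each other group) and bars are the group mean ± SD. DPP3, DMAC2, ESAM, YIF1A and RFPL4A lay above all Control arrays on all 17 treated arrays, and CA2 did so on 15 of 17.

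A gene was called in a comparison at a Benjamini-Hochberg adjusted p under 0.05 in limma, over all 18417 genes, and a fold change over 1.5. Against Control, all 6 genes were called up at Cis/TM 24 h, Cis/TM 12 h, Cis 24 h, Cis 12 h and TM 12 h, where 4.54%, 15.2%, 11.5%, 14.8% and 8.99% of all genes were called up. At TM 24 h, 5 of the 6 were, all but CA2, among 5.16% of all genes. Nothing is read from these counts, since the genes were selected on them. The call of CA2 at TM 12 h is the only one of them that depended on the processing: its log2 difference of 0.66 was not called without TM 12 h B (0.63), without Control A (0.55) or after removing the trend with level (0.43). In all, 281 genes (1.53%) were called up in all 6 comparisons. In the order of the smallest of the 6 differences, DMAC2 was number 6 of these, DPP3 number 7, ESAM number 9, YIF1A number 10 and RFPL4A number 35, and RFPL4A was number 1 in the order of the mean of the 6 differences (2.36).

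**Figure D2:**
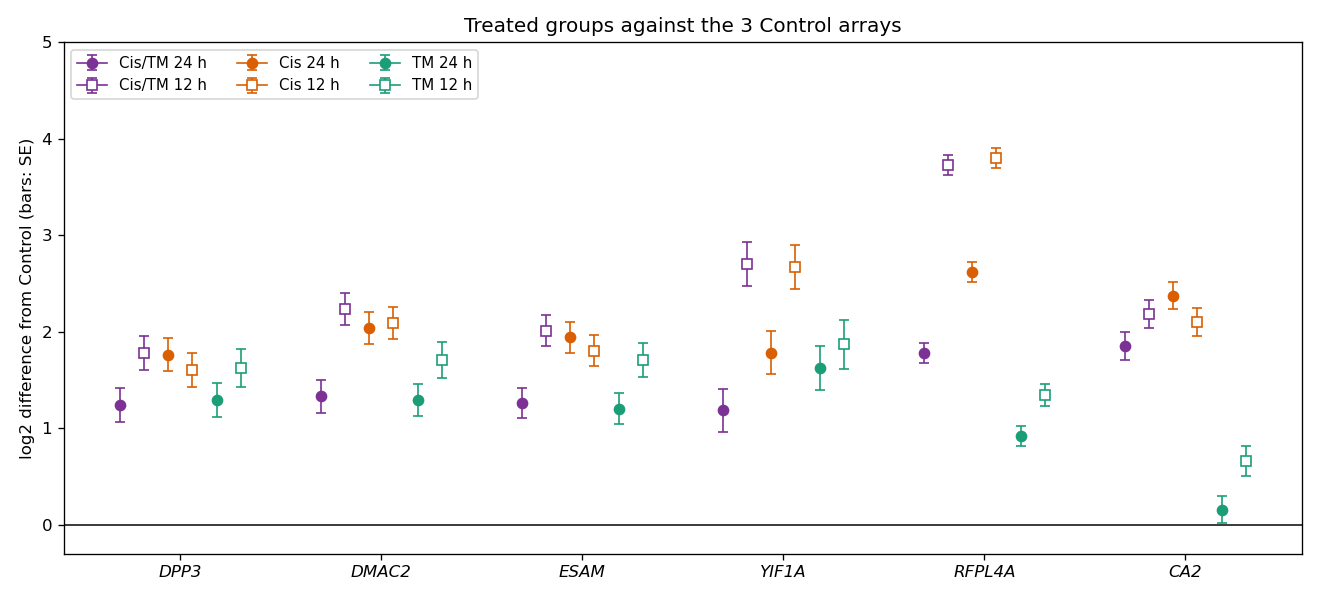
Log2 differences of the 6 treated groups from the 3 Control arrays (vertical axis, 0 is Control), by gene along the horizontal axis. Filled circles are 24 h, open squares are 12 h and bars are standard errors. RFPL4A reached 3.80 at Cis 12 h, and CA2 at TM 24 h (0.16) is the only value near 0.

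The question of whether TM changed the response to cisplatin was asked with both drugs against cisplatin alone. At 24 h, DMAC2 was lower with both drugs (7.98 ± 0.14) than with cisplatin alone (8.69 ± 0.22, SD, n = 3 each), by a log2 difference of −0.71 ± 0.17 (SE, limma adjusted p = 0.0246). ESAM differed by −0.68 ± 0.16 (adjusted p = 0.0232 in limma), and RFPL4A by −0.84 ± 0.10 (adjusted p = 0.0012 in limma), with means of 9.52 and 10.36 that all 3 arrays of each group kept apart. These 3 of the 6 genes were called, where 1.5% of all genes were called in either direction. That share covers all genes, and against Control 11.5% of them were called up at Cis 24 h and 4.54% at Cis/TM 24 h. The share among genes raised by cisplatin was not examined. The other 3 of the 6 genes pointed the same way without being called. CA2 differed by −0.52 ± 0.14 (limma adjusted p = 0.0467, under 1.5-fold), DPP3 by −0.52 ± 0.17 (adjusted p = 0.104) and YIF1A by −0.60 ± 0.23 (adjusted p = 0.155). The calls of DMAC2 and ESAM were lost without Cis/TM 24 h B, Cis/TM 24 h C, Cis 24 h A or Cis 24 h B, with differences of −0.54 to −0.76 and adjusted p in limma of 0.0609 to 0.148, and that of ESAM also without Cis 24 h C (0.0528). With each array centred on its median the adjusted p was 0.0586 for DMAC2 and 0.0634 for ESAM, and ESAM was not called after quantile normalization (−0.56, adjusted p = 0.0561 in limma) or after removing the trend with level (−0.58, under 1.5-fold). The call of RFPL4A was made under all 29 alternatives. RFPL4A and CA2 were chosen for their rise at Cis 24 h and Cis/TM 24 h, the groups compared here. Their p-values and calls in this comparison are therefore not independent of that choice.

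At 12 h the same comparison called 0 of the 6 genes, as it called 0% of all genes with limma, and 0 of the 6 had an unadjusted p under 0.05. The means of RFPL4A were 11.47 ± 0.04 with both drugs and 11.54 ± 0.06 with cisplatin (SD, n = 3 each), a log2 difference of −0.08 with a 95% interval of −0.30 to 0.14. For the other genes the differences were between 0.03 (YIF1A, interval −0.45 to 0.51) and 0.21 (ESAM, interval −0.13 to 0.54), and every interval included 0.

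With both drugs set against TM alone, 0 of the 4 genes for which this was tested were called at 24 h, among 6.28% of all genes, and 0 had an unadjusted p under 0.05 in limma. ESAM read 6.33 ± 0.35 with both drugs and 6.27 ± 0.12 with TM (SD, n = 3 each), a log2 difference of 0.06 with an interval of −0.28 to 0.39. The difference was 0.04 (−0.31 to 0.39) for DMAC2, −0.05 (−0.42 to 0.31) for DPP3 and −0.44 (−0.92 to 0.03) for YIF1A. At 12 h, YIF1A was higher with both drugs (8.09 ± 0.16, SD, n = 3) than with TM (7.25 ± 0.12, SD, n = 2), by 0.83 ± 0.25 (SE, limma adjusted p = 0.0213), and was the only 1 of the 4 called, among 13.6% of all genes. DMAC2 was higher by 0.53 ± 0.19 (adjusted p = 0.0487 in limma) and stayed just under 1.5-fold. The call of YIF1A was lost without Cis/TM 12 h A (adjusted p = 0.0803 in limma), TM 12 h A (0.0742) or TM 12 h B (0.163), the last 2 of which leave TM 12 h with 1 array that is assumed to vary like the other groups.

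Cisplatin alone was set against TM alone in the same way. At 24 h, DMAC2 was higher with cisplatin (8.69 ± 0.22) than with TM (7.94 ± 0.22, SD, n = 3 each), by 0.75 ± 0.17 (SE, adjusted p = 0.0032 in limma). ESAM was higher by 0.74 ± 0.16 (limma adjusted p = 0.0024). In both genes all 3 cisplatin arrays lay above all 3 TM arrays, and 2 of 4 genes were called, beside 8.55% of all genes. DPP3 was higher by 0.47 (adjusted p = 0.0734 in limma) and YIF1A by 0.16 (interval −0.32 to 0.63). At 12 h it was YIF1A that differed, with 8.06 ± 0.34 for cisplatin (SD, n = 3) and 7.25 ± 0.12 for TM (SD, n = 2), a log2 difference of 0.80 ± 0.25 (SE, adjusted p = 0.0223 in limma), lost without Cis 12 h B, TM 12 h A or TM 12 h B (adjusted p of 0.0718 to 0.155). DPP3, DMAC2 and ESAM were not called, so that 1 of 4 was, among 17.2% of all genes. For RFPL4A and CA2 these contrasts are near those that chose the genes and are given as values. RFPL4A stood 1.70 higher with cisplatin than with TM at 24 h and 2.46 higher at 12 h, and CA2 stood 2.22 and 1.44 higher.

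**Figure D3:**
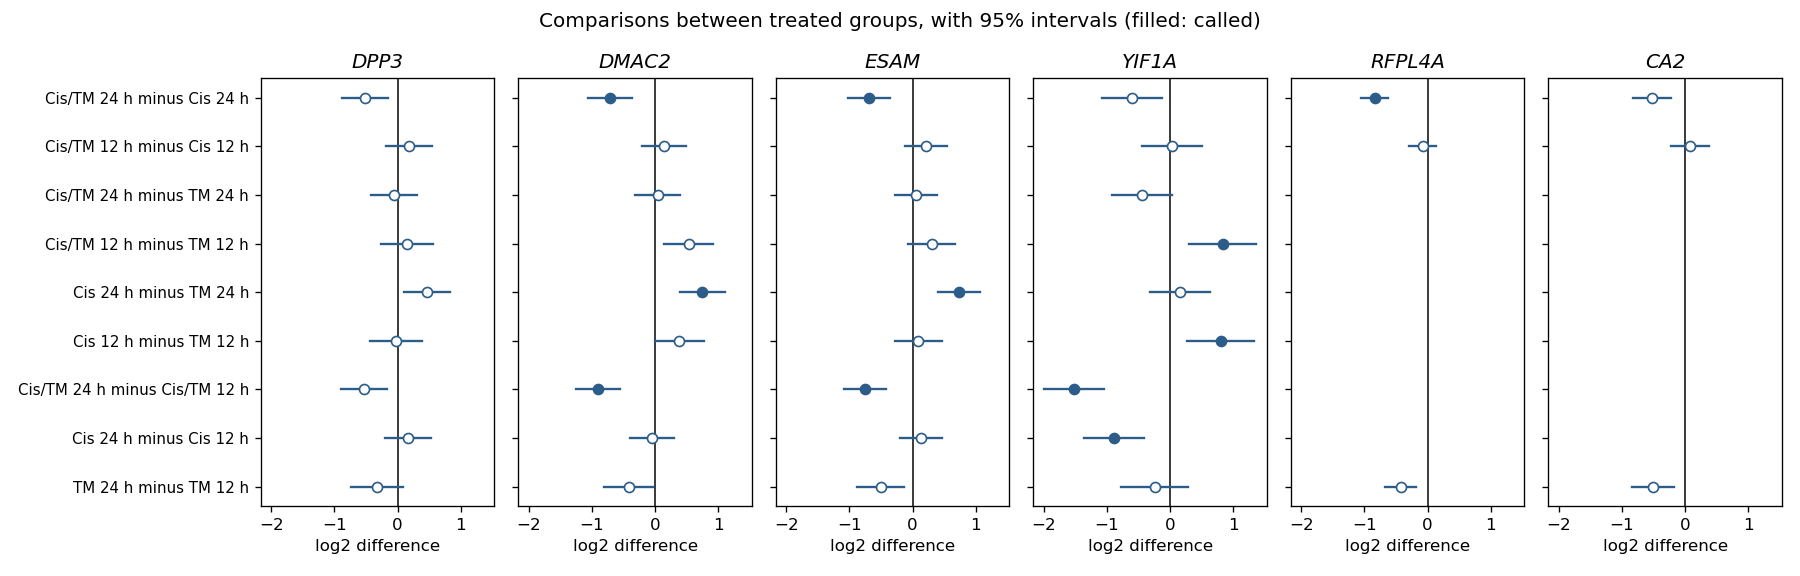
Log2 differences between treated groups (horizontal axis) for the 9 comparisons named at the left, with 95% intervals from limma. Filled points are called genes and rows without a point were not tested for RFPL4A and CA2. DMAC2 and ESAM share their filled points, which lie at Cis/TM against Cis and Cis against TM at 24 h and at 24 h against 12 h of Cis/TM, whereas those of YIF1A lie at 12 h against TM and in the changes with time.

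With time, all 4 genes were lower at 24 h than at 12 h under both drugs, and 3 of the 4 were called. YIF1A was at 6.57 ± 0.08 at Cis/TM 24 h and 8.09 ± 0.16 at Cis/TM 12 h (SD, n = 3 each), a log2 difference of −1.52 ± 0.23 (SE, adjusted p = 4.16e-05 in limma). DMAC2 fell by 0.91 (adjusted p = 0.0003 in limma) and ESAM by 0.75 (limma adjusted p = 0.0012), and in all 3 genes every 24 h array lay below every 12 h array. DPP3 differed by −0.53 (adjusted p = 0.0270 in limma), its 24 h arrays also all below its 12 h arrays, and did not pass 1.5-fold. These 3 of 4 calls stand beside 13.7% of all genes. That share covers all genes, of which 15.2% were called up against Control at Cis/TM 12 h and 4.54% at Cis/TM 24 h. The share among raised genes was not examined, here or in the other comparisons between treated groups. Under cisplatin alone only YIF1A fell, by 0.89 (adjusted p = 0.0070 in limma), and 1 of 4 genes was called, beside 10.6% of all genes. The intervals of the other 3 were −0.20 to 0.53 for DPP3, −0.40 to 0.30 for DMAC2 and −0.19 to 0.47 for ESAM. Under TM, 0 of the 6 genes were called in limma, as 0.00543% of all genes were (1 gene), although DMAC2, ESAM, RFPL4A and CA2 had an unadjusted p under 0.05 with differences of −0.42 to −0.51. As values with no test, 24 h minus 12 h was −1.94 under both drugs and −1.18 under cisplatin for RFPL4A, and −0.33 and 0.27 for CA2.

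The change with time was then compared between treatments. For YIF1A the change under both drugs (−1.52) differed from that under TM (−0.24) by −1.28 ± 0.34 (SE, limma adjusted p = 0.0188), and the call was lost without Cis/TM 12 h A, TM 12 h A or TM 12 h B (adjusted p of 0.0527 to 0.093). It was the 1 of 4 genes called, among 9.38% of all genes. The change under both drugs minus that under cisplatin was −0.86 for DMAC2, −0.89 for ESAM, −0.76 for RFPL4A, −0.70 for DPP3, −0.63 for YIF1A and −0.60 for CA2. None of the 6 passed limma's adjustment (adjusted p of 0.0860 for RFPL4A to 0.466 for YIF1A), in a comparison that called 0.0434% of all genes, and 5 of the 6 (all but YIF1A) had an unadjusted p under 0.05. The change under cisplatin minus that under TM called 0 of 4 genes with limma, beside 9.90% of all genes, with ESAM (0.65, adjusted p = 0.0904) as the 1 gene at an unadjusted p under 0.05.

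Control enters the comparison of the combination with the sum of both single drugs, which is therefore a description. If log2 changes added up, Cis/TM would lie above Control by the sum of the changes in Cis and TM. At 24 h the departure from that sum was −2.23 ± 0.32 (log2, ± SE) for YIF1A, −2.00 ± 0.24 for DMAC2, −1.89 ± 0.23 for ESAM, −1.82 ± 0.25 for DPP3 and −1.75 ± 0.15 for RFPL4A, and −0.68 ± 0.20 for CA2. At 12 h it was −1.84 ± 0.34 for YIF1A, −1.56 ± 0.25 for DMAC2, −1.50 ± 0.24 for ESAM, −1.45 ± 0.26 for DPP3, −1.42 ± 0.16 for RFPL4A and −0.58 ± 0.21 for CA2. In all 6 genes the combination was at most 0.21 from cisplatin alone at 12 h, and at 24 h it lay below cisplatin alone.

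A second transcript cluster of RFPL4A bears on what its values measure. It is annotated to the same gene alone, and its values followed the first with r = 0.999 over the 20 arrays and a gap of at most 0.17. On this cluster the difference between both drugs and cisplatin at 24 h was −0.91 ± 0.12 (SE, limma adjusted p = 0.00113 over 19460 clusters). It is a further reading of the same arrays, in the groups on which the gene was chosen. RFPL4A lies beside a near-identical copy, RFPL4AL1, which has no cluster of its own here, so RNA of the 2 genes cannot be told apart here. The other RFPL genes did not move with it: RFPL1, RFPL2, RFPL3 and RFPL4B differed from Control by −0.57 to 0.24 in the 6 comparisons, 0 of these 24 differences were called (with arrays centred on their medians, RFPL1 was called down 1 time and RFPL2 2 times), and of the 12 with an unadjusted p under 0.05 in limma 11 were lower than Control. The oocyte and early embryo genes measured, among them ZP3, NLRP5, GDF9 and BMP15, had mean levels at the 5.85 to 42.5 percentile of all genes, and 1 of their 48 differences was called, a fall of ZP3 at Cis/TM 24 h (−0.62).

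The sequences upstream of the genes are shown as a description. The shared rise of DPP3, DMAC2, ESAM and YIF1A was the rule that chose them. A link between the sequences and the expression values was not tested. Promoters of DPP3, DMAC2, YIF1A and RFPL4A were in the RefSeq table used here (GRCh38.p14), ESAM and CA2 were not, and RFPL4AL1 is given to show the copy. Each run is the 250 bases before the annotated start, 5′ to 3′ on the strand of the gene, with capitals for CCAAT, the box bound by NF-Y, or for its reverse complement ATTGG. The windows are chr11:66480184-66480433 (plus strand), chr19:41439538-41439787 (minus), chr11:66289144-66289393 (minus), chr19:55758847-55759096 (plus) and chr19:55768868-55769117 (plus).
DPP3: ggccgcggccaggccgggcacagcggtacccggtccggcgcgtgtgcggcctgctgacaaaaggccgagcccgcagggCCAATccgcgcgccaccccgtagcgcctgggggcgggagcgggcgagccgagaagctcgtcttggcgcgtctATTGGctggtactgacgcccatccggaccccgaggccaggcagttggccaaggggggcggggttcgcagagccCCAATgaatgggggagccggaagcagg
DMAC2: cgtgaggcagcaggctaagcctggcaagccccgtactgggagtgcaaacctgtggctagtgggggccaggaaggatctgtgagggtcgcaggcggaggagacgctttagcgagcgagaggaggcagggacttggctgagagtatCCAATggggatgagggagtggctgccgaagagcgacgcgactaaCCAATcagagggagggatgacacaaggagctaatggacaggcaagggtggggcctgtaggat
YIF1A: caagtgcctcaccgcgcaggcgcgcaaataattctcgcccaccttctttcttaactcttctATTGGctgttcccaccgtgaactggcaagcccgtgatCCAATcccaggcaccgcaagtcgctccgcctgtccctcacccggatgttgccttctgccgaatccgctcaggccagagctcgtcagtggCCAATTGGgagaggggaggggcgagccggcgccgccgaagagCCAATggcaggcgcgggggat
RFPL4A: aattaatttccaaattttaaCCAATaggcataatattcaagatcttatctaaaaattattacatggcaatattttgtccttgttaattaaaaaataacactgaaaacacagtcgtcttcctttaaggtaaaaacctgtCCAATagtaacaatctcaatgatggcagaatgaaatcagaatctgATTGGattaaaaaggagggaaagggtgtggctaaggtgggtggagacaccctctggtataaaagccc
RFPL4AL1: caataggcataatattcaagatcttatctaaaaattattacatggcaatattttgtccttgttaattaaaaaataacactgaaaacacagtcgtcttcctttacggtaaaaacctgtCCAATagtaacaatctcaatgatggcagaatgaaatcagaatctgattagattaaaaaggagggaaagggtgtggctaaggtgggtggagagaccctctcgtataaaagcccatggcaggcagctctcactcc

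Counted on both strands, CCAAT occurred 5 times before YIF1A, 3 times before DPP3 and before RFPL4A, 2 times before DMAC2 and 1 time before RFPL4AL1. The window of RFPL4AL1 begins inside the first CCAAT of RFPL4A, so that box is cut off at its edge and not counted. The ATTGG of RFPL4A reads ATTAG in RFPL4AL1. A forward and a reverse copy overlap in the YIF1A window, at 63 to 59 and 60 to 56 bases before the start. Of the 35116 promoters in the table, 32.0% held CCAAT at least 1 time, 9.53% at least 2 times and 2.93% at least 3 times. This motif was singled out after the sequences had been seen, and a match is a description of the letters and not a binding site. G and C make up 73.2% of the window of DPP3, 62.8% of that of YIF1A and 60.8% of that of DMAC2, beside a median of 58% over all promoters. The window of RFPL4A has 33.6% and holds TATAAA, which 10.7% of promoters hold. GGGCGG, a GC box, occurred 2 times before DPP3 and is held by 42.6% of promoters. The metal response element cores TGCGCNC and TGCACNC, searched because TM binds copper, occurred 1 time each, before YIF1A and before DMAC2, and are held by 16.8% and 9.87% of promoters. The antioxidant response element core TGACNNNGC, held by 10.9%, had no match in these windows. Also searched was the ETS site CCGGAAG, which occurred 1 time before DPP3 and is held by 8.52% of promoters. The cAMP response element TGACGTCA (1.65%) and the E2F site TTTCGCGC (0.439%) had no match. Over the table's whole windows, RFPL4A and RFPL4AL1 matched at 274 of 279 bases (98.2%) once shifted by 21 bases.

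Among genes of the early secretory pathway, where YIF1A works, LMAN2 and RAB1B rose in all 6 comparisons, while the list as a whole moved in both directions. Of 29 genes of the YIP1 family and of COPII transport, 3 were called up at Cis/TM 24 h, 8 at Cis/TM 12 h, 6 at Cis 24 h, 9 at Cis 12 h, 2 at TM 24 h and 5 at TM 12 h, where 4.54%, 15.2%, 11.5%, 14.8%, 5.16% and 8.99% of all genes were called up. The counts called down were 1, 2, 1, 3, 1 and 0 in the same order, where 2.48%, 8.55%, 4.90%, 10.8%, 2.55% and 3.11% of all genes were called down. They were calls of SEC24D (3 comparisons), SEC24A (2), ERGIC1 (2) and SEC24B (1), which are named here after their values were seen. The list's median log2 difference was between 0.04 and 0.09 in each comparison, against −0.046 to −0.002 over all genes. After quantile normalization, and likewise with the trend with level removed, the counts called up in this list were 1, 8, 4, 7, 2 and 3 in that order. LMAN2, a lectin that carries glycoproteins out of the endoplasmic reticulum, rose in all 6 comparisons, by 0.81 at Cis/TM 24 h to 2.03 at Cis 12 h. RAB1B, a GTPase of transport between endoplasmic reticulum and Golgi, rose in all 6 as well (0.68 to 1.39). ERGIC3, a protein of the intermediate compartment, rose in 5 (0.60 to 1.12) and the cargo receptor SURF4 in 4 (0.74 to 1.39). After quantile normalization LMAN2 was still called in 6 comparisons, RAB1B in 5, ERGIC3 in 4 and SURF4 in 2.

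RAB1B is also a neighbour of YIF1A, among the 5 measured genes on either side of it in the RefSeq gene order. BRMS1, a metastasis suppressor of the SIN3 deacetylase complex on the other side of YIF1A, rose in all 6 comparisons, by 0.61 at TM 24 h to 2.15 at Cis/TM 12 h. KLC2, a kinesin light chain, rose in 4 (0.62 to 1.52). With the trend with level removed, BRMS1 was called in 4 comparisons and KLC2 in 3. Among the 10 neighbours, 2 were called up at Cis/TM 24 h, 4 at Cis/TM 12 h, 3 at Cis 24 h, 4 at Cis 12 h, 2 at TM 24 h and 3 at TM 12 h, and none was called down. Over all genes the shares called up were 4.54%, 15.2%, 11.5%, 14.8%, 5.16% and 8.99% in that order. The 10 neighbours of DPP3 had 0, 1, 1, 1, 0 and 0 called up in the same order. Those of DMAC2 had 0, 1, 1, 1, 0 and 1, and those of ESAM 0, 1, 0, 1, 0 and 0. The counts were 0, 1, 1, 2, 1 and 1 for RFPL4A and 0, 1, 0, 0, 0 and 1 for CA2. U2AF2, a splicing factor beside RFPL4A, rose in 5 comparisons (0.78 to 1.08), whereas of the 6 NLRP genes around RFPL4A only NLRP4 was called, 1 time, as lower (0 times after quantile normalization). SPA17, a sperm protein beside ESAM, fell in 5 comparisons (log2 differences of −1.57 to −0.91). BCKDHA beside DMAC2 rose in 3 and BBS1 beside DPP3 in 2. ACTN3 near DPP3 was called down in 1 (0 after quantile normalization). Near CA2, E2F5 was called down in 3 comparisons and REXO1L1P in 2. Of the 10 neighbours of CA2, 1, 2, 2, 2, 0 and 2 were called down in the order above. The shares over all genes were 2.48%, 8.55%, 4.90%, 10.8%, 2.55% and 3.11%.

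**Figure D4:**
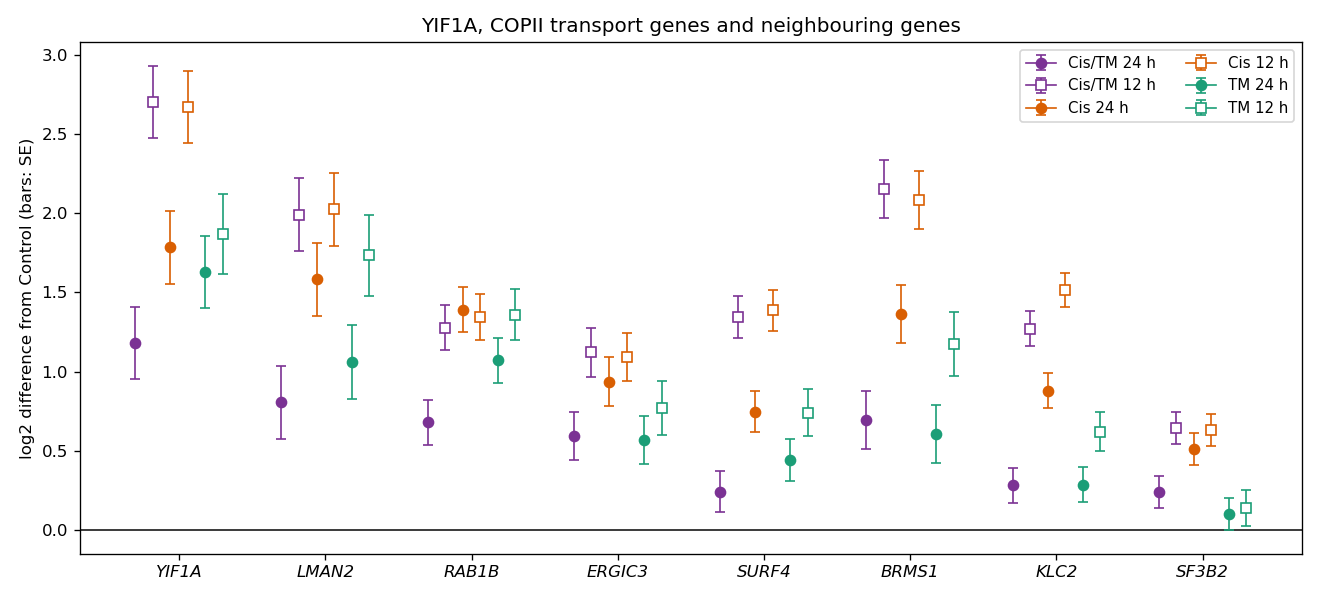
Log2 differences from Control (vertical axis, 0 is Control) of YIF1A, of 4 transport genes (LMAN2, RAB1B, ERGIC3 and SURF4, the first 4 by number of calls and then by mean difference, SEC13 having as many calls as SURF4) and of BRMS1, KLC2 and SF3B2, which lie near YIF1A. Filled circles are 24 h, open squares 12 h and bars standard errors. In YIF1A, LMAN2, SURF4, BRMS1 and KLC2 the 12 h groups with cisplatin are the highest, and Cis/TM 24 h is the lowest treated group of YIF1A, LMAN2, RAB1B and SURF4.

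Of 8 other peptidases listed beside DPP3, 0 were called up at Cis/TM 24 h, 2 at Cis/TM 12 h and 2 at Cis 24 h. The counts were 1 at Cis 12 h, 1 at TM 24 h and 2 at TM 12 h. Over all genes the shares were 4.54%, 15.2%, 11.5%, 14.8%, 5.16% and 8.99% in that order. The list's median log2 difference was −0.24 to −0.03, against −0.046 to −0.002 over all genes. DPP9, a cytosolic dipeptidyl peptidase, rose in 4 comparisons (0.60 to 1.18) and the lysosomal DPP7 in 4 (0.64 to 1.05). The prolyl oligopeptidase PREP fell by 0.68 at Cis 12 h, the only call down of the list, where 10.8% of all genes were called down. After quantile normalization DPP9 was called in 3 and DPP7 in 2. Of 18 KEAP1 partners and aminopeptidases, 0 were called up at Cis/TM 24 h, 5 at Cis/TM 12 h, 3 at Cis 24 h, 4 at Cis 12 h, 1 at TM 24 h and 3 at TM 12 h, beside 4.54%, 15.2%, 11.5%, 14.8%, 5.16% and 8.99% of all genes. The counts called down were 0, 1, 1, 3, 0 and 0, beside 2.48%, 8.55%, 4.90%, 10.8%, 2.55% and 3.11% of all genes. They were calls of the peptidases NLN, TPP2 and NPEPPS, which are named here after their values were seen. SQSTM1, the autophagy receptor that binds KEAP1, rose in 4 (0.66 to 1.42), and so did PGAM5, a mitochondrial phosphatase that binds KEAP1 (0.61 to 0.88), in 3 and 2 comparisons after quantile normalization. RNPEP, an aminopeptidase, rose in the 3 comparisons of Cis/TM 12 h, Cis 24 h and Cis 12 h.

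Complex I assembly factors, the company of DMAC2, moved in both directions. The list also holds ATP5F1A and DMAC2L, which belong with ATP synthase and were not called. Of 20 measured, 0 were called up at Cis/TM 24 h, 5 at Cis/TM 12 h, 4 at Cis 24 h, 4 at Cis 12 h, 1 at TM 24 h and 4 at TM 12 h, beside 4.54%, 15.2%, 11.5%, 14.8%, 5.16% and 8.99% of all genes. The counts called down were 1, 2, 1, 2, 0 and 0 in the same order, beside 2.48%, 8.55%, 4.90%, 10.8%, 2.55% and 3.11% of all genes. NDUFAF7, a methyltransferase of a complex I subunit, rose in 4 comparisons (0.67 to 0.94) and NDUFAF1 in 3 (0.65 to 0.92), which became 2 comparisons each after quantile normalization. NUBPL, which supplies iron-sulfur clusters to complex I, fell in the 4 comparisons with cisplatin (−1.24 at Cis/TM 24 h to −1.67 at Cis 24 h), also under each scaling tried, and differed from Control by −0.18 at TM 24 h and 0.12 at TM 12 h.

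Of the genes related to ESAM and CA2, at most 1 of each list was called up in any comparison, where 4.54% to 15.2% of all genes were. Counts called down follow for Cis/TM 24 h, Cis/TM 12 h, Cis 24 h, Cis 12 h, TM 24 h and TM 12 h. They were 1, 1, 0, 1, 0 and 0 of 13 genes for ESAM. For CA2 they were 0, 4, 3, 3, 0 and 2 of 21 genes. The shares of all genes called down were 2.48%, 8.55%, 4.90%, 10.8%, 2.55% and 3.11% in that order. Of 13 junction adhesion molecules and partners measured beside ESAM, VSIG2 was called up at Cis 12 h (0.65) and CLMP at TM 24 h (0.59), and neither was called under the other 3 scalings. TJP1, the tight junction scaffold ZO-1, fell by 0.80 at Cis/TM 12 h and fell by 1.03 at Cis 12 h, also under those scalings, and JAML was called down at Cis/TM 24 h (−0.59), though not after quantile normalization. Of 21 carbonic anhydrases and bicarbonate transporters, only CA13, a cytosolic isozyme and a neighbour of CA2, was called up, at Cis/TM 12 h (0.67) and TM 12 h (0.60), and it was called in 0 comparisons under the other scalings. SLC4A7, a bicarbonate cotransporter, fell in 3 comparisons with cisplatin (−1.38 to −0.67), under each scaling. The related SLC4A4 was called down in 3 (−0.74 to −0.60), the secreted CA6 in 4 (−0.75 to −0.62) and CA1, which lies beside CA2, in 2, but after removing the trend with level these counts were 1, 0 and 0.

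The genes whose log2 values followed each member most closely over the 20 arrays are named as a description, since all arrays share the same treatments. They were PPP1R11, RFC2 and MCM7 for DPP3 (Pearson r of 0.969, 0.961 and 0.961), FXR2, MICB and ATP6V0D1 for DMAC2 (0.983, 0.982 and 0.980) and TMEM97, RPA2 and SMG5 for ESAM (0.978, 0.961 and 0.960). For YIF1A they were MRPL46, EAF1 and PRPS1 (0.976, 0.976 and 0.970), for RFPL4A ALDOC, RHBDD2 and COQ10A (0.986, 0.983 and 0.983) and for CA2 IDH2, SLC26A10P and TCF19 (0.978, 0.969 and 0.965). Among the 6 genes themselves, DMAC2 and ESAM were the most alike pair (r = 0.962 over 20 arrays) and YIF1A and CA2 the least (r = 0.655).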

How the data were processed

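RNA of MDA-MB-231 cells from 7 groups was read on 20 arrays. Per the labels, the authors processed the arrays with RMA (background correction, normalization and summary of probe intensities), and the deposited values are log2. A genome build is not given in the sources used here. The labels name Trizol for RNA isolation and the methods an RNeasy kit. The deposited arrays are not identical in distribution: over all clusters the SD was 2.33 to 2.41 on treated and 2.21 to 2.24 on Control arrays. Of 33297 transcript clusters, 19460 carried 1 symbol, and 18417 genes were each read by the cluster with the highest mean.

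One linear model with 7 groups and 13 residual degrees of freedom was fitted with limma 3.58.1 in R 4.3.3 across all genes, with eBayes moderation and Benjamini-Hochberg adjustment. Fits were tested on simulated data. The 6 genes, the related lists and the comparisons were chosen with earlier results of these data known, and the differences from Control chose the genes. Named genes are the 6, up to 4 per list with the most calls, relatives of RFPL4A and CA2, and the 3 genes most correlated with each. Some genes of the lists were not analysed here. Alternatives were other scalings, a filter on low genes, other eBayes settings, array weights, fewer groups, averaged clusters and leaving out each array. The precision is limited by the 2 or 3 arrays per group.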

Additional observations from a re-analysis of the deposited data

Results flagged for a closer look

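The change of YIF1A with time differed between treatments by a test of the difference itself: 24 h minus 12 h was −1.52 under Cis/TM and −0.24 under TM, a difference of −1.28 ± 0.34 (log2, ± SE, limma adjusted p = 0.0188). TM 12 h has 2 arrays in this comparison. No group holds enough arrays for a test of single arrays that stand apart.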

How the results depend on the processing

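The log2 differences of DPP3, DMAC2, ESAM, YIF1A and RFPL4A from Control were positive and called under all 29 alternatives, 20 of which left out 1 array. The removal of the trend with level was chosen after seeing the data. In Cis/TM 24 h minus Cis 24 h, 3 members were called, against 1 with arrays centred on their medians and 1 to 4 without single arrays. Without single arrays, 0 to 2 were called in Cis/TM 12 h minus TM 12 h, 0 to 1 in Cis 12 h minus TM 12 h and 0 to 1 in the change with time in Cis/TM minus that in TM (1 each as reported). The change with time in Cis/TM minus that in Cis called 0, but 1 after quantile normalization, 1 with a trended robust prior and 4 with array weights, and that in Cis minus TM called 0, but 2 with array weights and 1 with only the groups compared.

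Of 174 genes of the lists and neighbours, 4 were called up at Cis/TM 24 h (2 after quantile normalization, 1 with only the groups compared, 1 with the trend removed, 3 to 7 without single arrays) and 5 down (3 with array weights, 2 with only the groups compared). At Cis 24 h, 20 were up (11 after quantile normalization and 11 with the trend removed) and 9 down (15 with arrays centred, 5 to 12 without single arrays). At TM 24 h, 8 were up (4 with arrays centred, 4 after quantile normalization, 5 with only the groups compared, 4 with the trend removed, 4 to 10 without single arrays) and 2 down (5 with arrays centred, 6 after quantile normalization, 5 with the trend removed, 2 to 5 without single arrays). At TM 12 h, 19 were up (9 after quantile normalization and 9 with the trend removed) and 5 down (8 with arrays centred, 3 without the lowest 25% of genes, 2 with only the groups compared, 3 to 7 without single arrays).

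Only differences near 0 that were not called changed sign. In Cis/TM 24 h minus TM 24 h, ESAM was −0.00499 with array weights, and without single arrays DPP3 ran from −0.207 to 0.0597, DMAC2 from −0.0290 to 0.169 and ESAM from −0.134 to 0.204. In Cis/TM 12 h minus Cis 12 h, YIF1A was −0.0794 after quantile normalization, −0.0330 with the trend removed and −0.111 to 0.218 without single arrays, and CA2 was −0.0129 after quantile normalization. In Cis 12 h minus TM 12 h, DPP3 was 0.0657 after quantile normalization, 0.0287 with the trend removed and −0.104 to 0.128 without single arrays, and ESAM −0.00575 to 0.151. DMAC2 in Cis 24 h minus Cis 12 h was 0.00939 with arrays centred and −0.179 to 0.139 without single arrays. The causes were not tested. The residuals of same-letter arrays of different groups correlated by 0.008 in the median over 57 pairs (−0.423 to 0.613). Arrays with different letters were not compared with these, so the median cannot show whether a shared letter pairs arrays. With the replicate block, DPP3 in Cis 12 h minus TM 12 h was 0.0457, and no call of a member changed. With 2 or 3 arrays per group, small differences could not be told from the spread, and the 3 Control arrays enter all 6 comparisons with Control.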
